A study of Mus musculus with 6 samples.

Results

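Protocadherins are the largest subfamily of the cadherin adhesion proteins, and their RNA was measured in primary mouse embryonic fibroblasts (pMEFs) with and without the histone acetyltransferase HAT1. The genes were every row of the deposited count table whose symbol begins with Pcdh. This gave 63 of the 17512 genes listed, made up of 11 alpha (Pcdha), 21 beta (Pcdhb) and 21 gamma (Pcdhg) genes of the clustered kind and 10 non-clustered genes. The protocadherin genes Pcdh8, Pcdh12, Pcdha1, Pcdha2, Pcdha4, Pcdhb1 and Pcdhga10 were not analysed here.

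Clustered protocadherins are best known in neurons, where each cell expresses its own small set of isoforms and homophilic binding between matching sets lets a cell tell its own branches from those of others. Every alpha and gamma variable exon has a promoter of its own and is spliced to last exons shared by the whole cluster, whereas beta genes have a single coding exon. Promoter choice depends on the insulator protein CTCF, on cohesin and on DNA methylation, and the C-type isoforms at the ends of the alpha and gamma clusters are regulated apart from the others. Non-clustered protocadherins (the delta1 and delta2 groups and a few divergent members) are scattered over the genome and act in cell adhesion, migration and synapse formation.

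HAT1 acetylates histone H4 that has just been synthesised and is still to be deposited on DNA, and the RNA-Seq experiment asked whether accessibility lost in HAT1-/- cells follows a loss of transcription. Total RNA came from 6 pMEF lines on a C57bl6 background, grown in DMEM with fetal bovine serum, with no treatment named in the labels. The 3 HAT1 WT (HAT1+/+) lines were numbered 36, 47 and 78, and the 3 HAT1 KO (HAT1-/-) lines 33, 41 and 72. Each line grew from the trypsin-dispersed tissue of mid-gestation embryos stripped of internal organs, so a line was a mixed population of the cells that attached rather than a clone. No source states whether lines were littermates, and p-values therefore measure only the spread between these lines. Values below are listed in the line order just given.

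Libraries held 67720628 to 98786746 counts. Levels are given as CPM (counts scaled to library size) scaled by TMM factors. Genotypes were compared with edgeR's quasi-likelihood test on 14773 genes, and log2 fold changes are HAT1 KO against HAT1 WT. Hat1 had 1316, 1855 and 1989 counts in WT lines and 910, 678 and 796 in KO lines, and fell by 0.99 on the log2 scale (SE 0.12, edgeR adjusted p = 0.0376). The genotypes also differed in the makeup of their lines. Y-linked genes were near 0 in all KO lines and low in WT line 78, and Xist was low in WT lines 36 and 47. KO line 72 was the highest or the lowest line for 51.5% of the tested genes. Lane 8 held WT line 36 alone, while lanes 6 and 7 held both genotypes. The fibroblast markers summed to 60871 to 68794 CPM in WT and 46349 to 78361 CPM in KO lines. All 9 macrophage and blood markers were lower in KO, 6 of them at an edgeR adjusted p under 0.05, with a median log2 fold change of -0.85 and sums of 1981 to 2150 CPM in WT against 1064 to 1277 CPM in KO lines. Their part in any protocadherin difference was not tested, and in bulk RNA fewer cells of a type and less RNA per cell cannot be told apart.

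No protocadherin passed the test across all genes. Of the 55 tested members, 0 had an edgeR adjusted p under 0.05 (78 of all 14773 tested genes, or 0.528%, did), and the smallest adjusted p was 0.133. At an unadjusted p under 0.05, 10 members were counted against a background of 14.6%, of which 4 were higher (background 5.88%) and 6 lower (background 8.77%) in KO. Higher and lower members were about equally many, 29 against 26, and 51.5% of all tested genes were higher. DESeq2 called 4 members at an adjusted p under 0.05, against 5.9% of all tested genes. These were Pcdha10 (adjusted p = 0.00392), Pcdhgb2 (0.00669), Pcdhgb1 (0.00774) and Pcdh11x (0.0327). DESeq2 gave no adjusted p for Pcdh15, Pcdh17, Pcdh20, Pcdhb6, Pcdhb8 and Pcdhb12. Genes without one count as not called, among the members and among all tested genes. In each of the 10 members with an unadjusted p under 0.05 in edgeR, KO and WT lines did not overlap. The ratio of KO to WT within lane 6 (3 lines) or lane 7 (2 lines) therefore had to keep its direction. Where such ratios are given below, they show size only and do not test an effect of lane. An exact permutation of 3 lines against 3 cannot give a p below 0.1.

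Class medians were farthest from 0 in the alpha genes. Median log2 fold changes of the tested members were 1.53 for alpha (4 genes), 0.04 for beta (20), -0.09 for gamma (21) and -0.17 for non-clustered genes (10), beside 0.01 for all tested genes. The 8 untested members, 7 alpha genes and Pcdhb10, had 0 to 24 counts in any line, and the filter asks for counts in only as many lines as 1 genotype has. Summed CPM of the gamma class was 300, 274 and 281 in WT and 273, 275 and 274 in KO lines. Beta sums were 106, 99.6 and 141 CPM against 111, 122 and 127 CPM. The genotypes overlapped for both classes, and also for the non-clustered sums of 543, 546 and 477 against 522, 568 and 464 CPM. Alpha sums were 6.71, 6.01 and 7.98 CPM in WT and 7.13, 12.03 and 86.1 CPM in KO lines, a log2 ratio of means of 2.35 that became 0.48 without KO line 72. They overlapped too, since KO line 33 was below WT line 78.

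**Figure D1:**
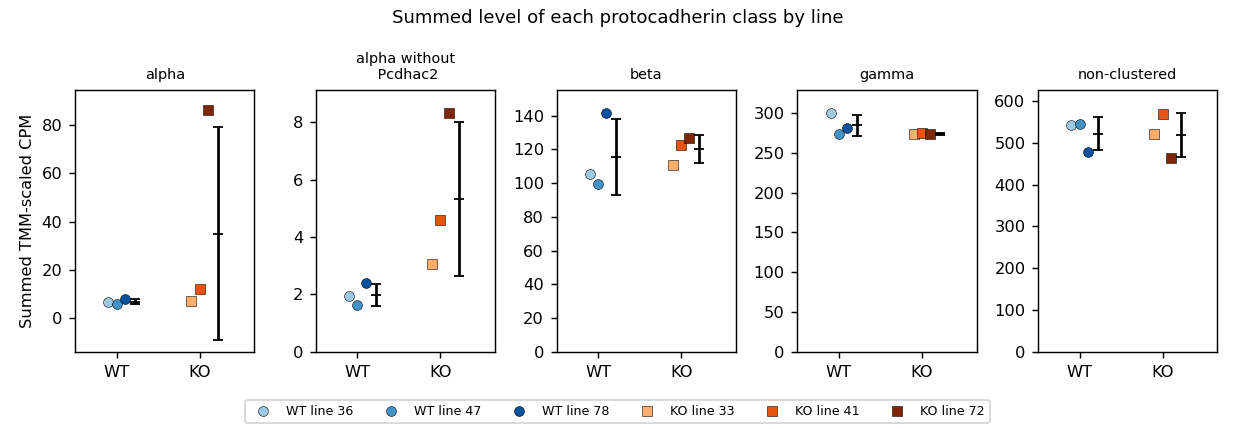
Summed TMM-scaled CPM (linear axes, one panel per class) in each of the 6 lines, with mean and SD (n = 3) as black bars. KO line 72 stands apart in the alpha panel at 86.1 CPM. The alpha sum without Pcdhac2 has all KO lines above all WT lines, and the sums of the other panels, the full alpha sum included, overlap.

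Per length, the highest protocadherin levels were those of Pcdhgc3 and of 3 non-clustered genes. Lengths were the exonic bases that belong to 1 gene alone, because alpha genes shared 48.6% to 83.2% and gamma genes 31.5% to 73.6% of their exonic bases with other genes. On this scale the median WT level per gene was 4.36 CPM per kb for gamma, 0.993 for non-clustered, 0.582 for beta and 0.0193 for alpha genes. Pcdhgc3 led at 37.98 ± 2.52 CPM per kb (SD, n = 3 WT lines), ahead of Pcdh18 at 29.2 ± 3.26, Pcdh19 at 18.0 ± 5.66 and Pcdh7 at 11.8 ± 1.58. Over all exonic bases, Pcdhgc3 came to 12.6 ± 0.83 CPM per kb and stood behind Pcdh18 at 29.2 and Pcdh19 at 17.9 CPM per kb. The order of Pcdhgc3 thus depended on the length used, whereas the ranges of Pcdh18 and Pcdh19 did not overlap in WT lines on either. Several alpha genes had 0 counts in lines where the cluster held 484 to 813 counts, so reads in the shared exons were not counted for every gene that contains them. Among the 41 member counts from 1 to 10, 87.8% were even numbers, and low counts may hold fewer independent fragments than their size.

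Among the alpha genes, Pcdha10, Pcdha12 and the C-type Pcdhac2 held most of the RNA. The cluster lies on chromosome 18 (GRCm38, chr18:36946105-37187657, plus strand, GENCODE M21). Mean CPM was higher in KO for 10 of its 11 genes (50.8% of all listed genes were), and for Pcdha7, Pcdha8, Pcdha10 and Pcdha12 every KO line was above every WT line (8.7% of all listed genes were). Pcdha7 and Pcdha8 had at most 16 counts in a line.

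Pcdha10 (listed under this symbol, while GENCODE M21 names its gene identifier Pcdha11) stood at 0.782, 0.646 and 1.03 CPM in WT and 1.59, 2.22 and 3.47 CPM in KO lines. The groups did not overlap, and KO line 72 was the highest. Its log2 fold change was 1.56 (SE 0.36, edgeR adjusted p = 0.146), and 1.22 without KO line 72. The ratio of KO to WT was 3.92 within lane 6 and 2.15 within lane 7. Pcdha12 stood at 0.676, 0.422 and 0.657 CPM in WT and 0.685, 1.07 and 3.23 CPM in KO lines. KO line 33 barely exceeded WT line 36, and the log2 fold change of 1.50 (SE 0.62, edgeR adjusted p = 0.338) was 0.59 without KO line 72.

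Pcdhac2 was the most abundant alpha gene by counts in every line. It stood at 4.75, 4.39 and 5.59 CPM in WT and 4.05, 7.44 and 77.8 CPM in KO lines. KO line 72 alone held 6000 of its counts, while KO line 33 was below all WT lines. The log2 fold change of 2.60 (SE 1.11, edgeR adjusted p = 0.354) was 0.24 without line 72. Pcdhac2 took 70.0% to 72.9% of alpha counts in WT lines, 56.9% and 61.9% in KO lines 33 and 41, and 90.3% in line 72. Without Pcdhac2 the alpha sum was 1.96, 1.63 and 2.40 CPM in WT and 3.08, 4.59 and 8.31 CPM in KO lines, with no overlap. This last sum was added after the values were seen.

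The neural markers Map2 and Stmn2 were also highest in KO line 72, while the other 5 listed neural markers were highest in other lines. The 7 listed neural markers summed to 66.3 to 74.7 CPM in WT lines and to 124, 73.1 and 234 CPM in KO lines. In line 72 Map2, a dendritic microtubule protein, had 11831 counts and Stmn2, a growth-cone protein, 1487. Of the 6 neural markers tested, 5 were higher in KO and 1, Tubb3 (log2 fold change 0.44, SE 0.17, edgeR adjusted p = 0.319), had an unadjusted p under 0.05. Their part in the alpha values was not tested.

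**Figure D2:**
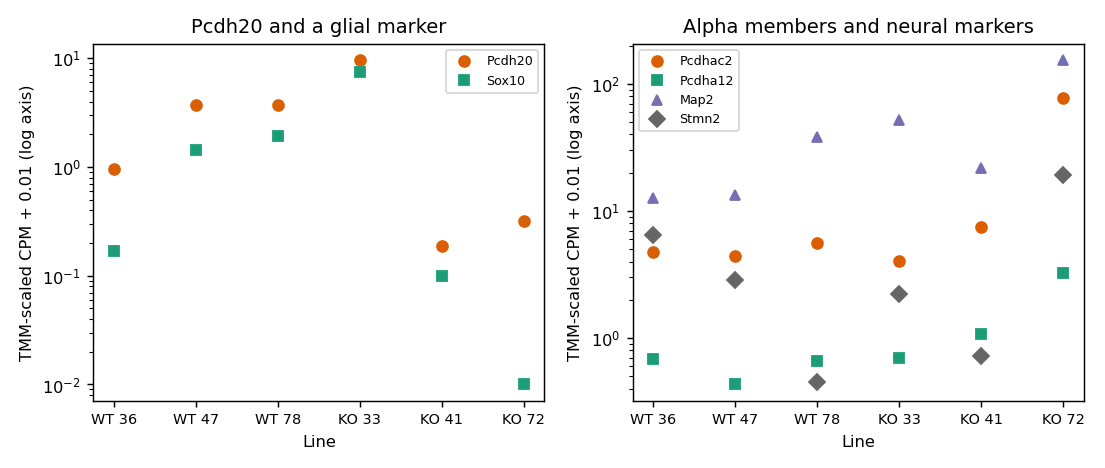
TMM-scaled CPM plus 0.01 (log axis) in each of the 6 lines for Pcdh20 with the glial gene Sox10 (left) and for alpha genes with the neuronal genes Map2 and Stmn2 (right), a choice made after the values were seen. KO line 33 is highest for both genes on the left, and KO line 72 for all 4 on the right.

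No beta gene had an unadjusted p under 0.05 in the edgeR test, and DESeq2 called 0 at an adjusted p under 0.05. The cluster (chr18:37294812-37524479) had 12 tested genes higher and 8 lower in KO, and log2 fold changes ran from -1.05 to 0.76. In 1 of 21 genes, Pcdhb4, all KO lines were above all WT lines, as in 8.7% of all listed genes (0.530, 0.472 and 0.606 against 0.887, 0.902 and 0.661 CPM). Its log2 fold change was 0.60 (SE 0.27, edgeR adjusted p = 0.367). Levels were uneven along the cluster. The genes from Pcdhb16 to Pcdhb22, a range chosen after the values were seen, held 83.4% ± 0.646 of the beta sum in WT and 82.6% ± 3.35 in KO lines (SD, n = 3 each).

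Pcdhb22, the last gene of the cluster, stood at 29.7, 24.3 and 28.7 CPM in WT and 24.1, 21.5 and 30.7 CPM in KO lines (log2 fold change -0.11, SE 0.15). Pcdhb17 stood at 19.8, 17.9 and 25.3 CPM against 21.2, 24.6 and 22.8 CPM (0.12, SE 0.15). Pcdhb19 stood at 12.1, 13.5 and 19.3 CPM against 12.3, 17.1 and 15.8 CPM (0.01, SE 0.21). All 3 genes overlapped between genotypes. WT line 78 was the highest line for 7 of the 21 beta genes, beside 20.5% of all tested genes. Beta genes are close paralogs, and how the authors counted reads that match several of them is not given in the sources used here, so levels of single beta genes are uncertain.

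The gamma sums overlapped between genotypes, and no gamma gene had an edgeR adjusted p under 0.05. Every KO sum lay between 273 and 275 CPM, with a mean of 274 ± 1.14 CPM against 285 ± 13.1 CPM in WT (SD, n = 3 each). Of the 21 genes (chr18:37661793-37841873), 9 were higher and 12 lower in KO, beside 51.5% of all tested genes that were higher. All KO lines were below all WT lines in 5 (12.4% of all tested genes were) and above them in 2 (9.59% were). The A-type genes summed to 108 ± 2.25 CPM in WT and 114 ± 1.30 CPM in KO, and the B-type genes to 80.8 ± 3.10 and 70.0 ± 1.60 CPM. Neither pair of sums overlapped. As shares of the gamma sum, A-type genes made up 38.1% ± 1.81 in WT and 41.5% ± 0.312 in KO, and B-type genes 28.4% ± 0.367 and 25.5% ± 0.547. The C-type sums of 108, 90.0 and 89.5 CPM in WT and 89.9, 89.4 and 92.0 CPM in KO lines overlapped.

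The B-type genes Pcdhgb2 and Pcdhgb1 were lower in KO at an unadjusted p under 0.05, while Pcdhga4, which lies between them, had a higher KO mean (log2 fold change 0.63, SE 0.35, edgeR adjusted p = 0.465). Pcdhgb2 stood at 20.1, 17.7 and 18.3 CPM in WT and 13.8, 14.1 and 11.4 CPM in KO lines. Pcdhgb1 stood at 9.52, 8.41 and 8.95 CPM against 6.83, 6.26 and 5.70 CPM. Neither gene overlapped between genotypes. The log2 fold changes were -0.51 (SE 0.11, edgeR adjusted p = 0.135) and -0.52 (SE 0.12, adjusted p = 0.145), with an unadjusted p under 0.05 in all 14 settings run. Pcdhgb2 in KO was at 0.711 of WT within lane 6 and 0.772 within lane 7.

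Pcdhga11 was the other gamma gene lower in KO at an unadjusted p under 0.05. It stood at 2.55, 4.01 and 3.81 CPM in WT and 2.23, 2.15 and 1.89 CPM in KO lines (log2 fold change -0.72, SE 0.23, edgeR adjusted p = 0.236). WT line 36 was only slightly above KO line 33. Pcdhgb6, the third B-type gene with all KO lines below WT, stood at 22.99, 23.6 and 25.4 CPM against 15.5, 22.8 and 6.86 CPM. KO line 41 was near the WT lines and line 72 far below them (log2 fold change -0.67, SE 0.40, adjusted p = 0.491). The change was -0.31 without line 72 and -1.09 without line 41. In Pcdhga7, the last of the 5 genes, the difference was small (-0.15, SE 0.09, adjusted p = 0.483).

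Pcdhga5 and Pcdhga8 were the genes with all KO lines above WT. Pcdhga5 stood at 11.9, 11.8 and 12.6 CPM in WT and 14.9, 13.7 and 15.1 CPM in KO lines (log2 fold change 0.26, SE 0.09, edgeR adjusted p = 0.253). Pcdhga8 stood at 10.4, 12.7 and 9.85 CPM against 14.9, 12.9 and 19.3 CPM (0.51, SE 0.18, adjusted p = 0.283). In Pcdhga8 the gap was between WT line 47 and KO line 41, which differed little. KO line 41 also parted from the other KO lines in Pcdhga4, Pcdhgb4 and Pcdhgb8, named after their values were seen. Pcdhga4 stood at 6.76, 6.53 and 7.24 CPM in WT and 10.4, 5.58 and 15.9 CPM in KO lines. For Pcdhgb4 the KO lines held 18.3, 12.3 and 25.4 CPM, and for Pcdhgb8, a polymorphic pseudogene in GENCODE M21, 4.47, 1.91 and 6.26 CPM. In all 3 genes KO lines 33 and 72 were above every WT line and KO line 41 was below at least 1 WT line.

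The C-type gene Pcdhgc3 had the highest gamma level and differed little between lines. It stood at 74.2, 65.3 and 67.9 CPM in WT and 67.9, 67.2 and 72.6 CPM in KO lines (log2 fold change 0.00, SE 0.07). Pcdhgc5 stood at 30.5, 21.5 and 18.8 CPM against 19.1, 18.7 and 17.1 CPM (-0.37, SE 0.18, edgeR adjusted p = 0.428), with WT line 36 apart from the others and a change of -0.13 without it. KO line 72 was the highest or the lowest line for 15 of the 21 gamma genes, beside 51.5% of all tested genes.

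**Figure D3:**
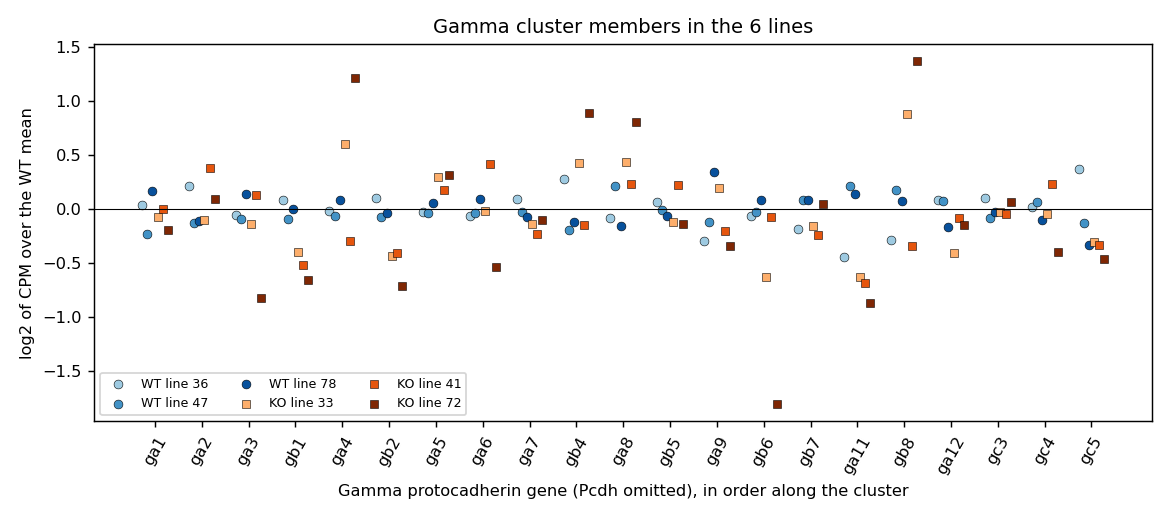
Level of each gamma gene in each of the 6 lines as log2 of its TMM-scaled CPM over the WT mean, in order along the cluster. All KO lines lie below the WT lines for gb1, gb2, ga7, gb6 and ga11 and above them for ga5 and ga8, and KO line 72 reaches farthest from the WT mean in gb6 and gb8.

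**Figure D4:**
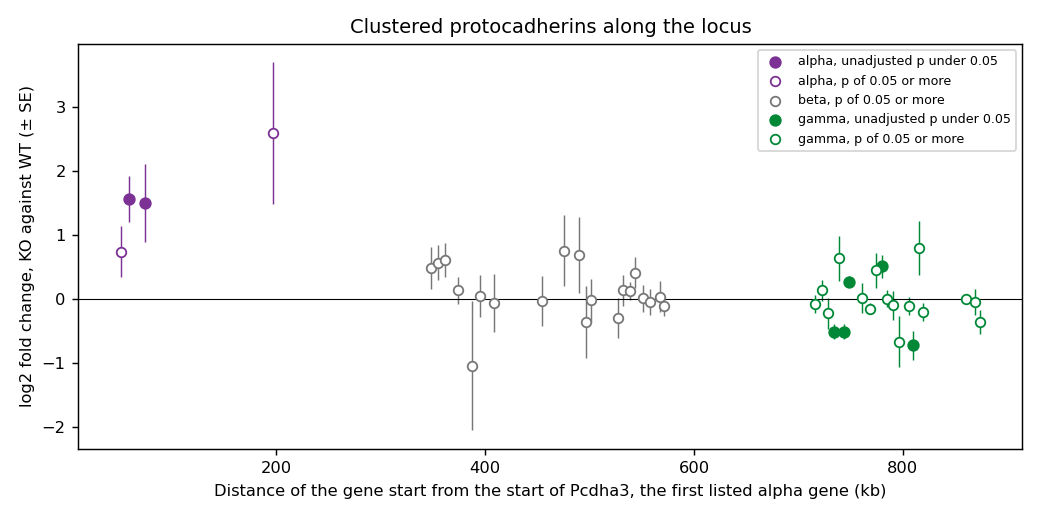
log2 fold change ± SE (edgeR, KO against WT) of the 45 tested clustered genes against the distance in kb of their start from the start of Pcdha3, with filled points for an unadjusted p under 0.05. The 4 alpha genes are above 0, and no beta gene is filled.

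Non-clustered genes included the members of highest CPM and the one with the largest fitted change. Pcdh7, Pcdh18 and Pcdh19 held 84.7% ± 1.30 of the class sum in WT and 86.9% ± 1.70 in KO lines (SD, n = 3 each). Of the 10 genes, 4 were higher and 6 lower in KO, and in 3 all KO lines were below all WT lines (12.4% of all tested genes were). By group, 2 of 4 delta1 genes, 3 of 4 delta2 genes and 1 of the 2 others were lower. Levels varied more between KO than between WT lines in 9 of the 10 genes (64.5% of all tested genes did), with median coefficients of variation of 69.9% and 22.4%. KO line 72 was the highest or the lowest line for 8 of the 10, beside 51.5% of all tested genes.

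Start regions of the most and the least abundant non-clustered genes are shown to compare their CG content, since CG is where DNA methylation acts in promoters. RefSeq (GRCm38.p6) start windows, 250 bases before to 50 after the annotated start, matched 8 of the 63 members, and the motif searched was the dinucleotide CG, written in capitals, which reads the same on both strands. Pcdh18 and Pcdh19 had the highest mean CPM of the 10 genes, and Pcdh17 and Pcdh15 the lowest.
Pcdh18 (chr3:49757267-49757566, minus strand): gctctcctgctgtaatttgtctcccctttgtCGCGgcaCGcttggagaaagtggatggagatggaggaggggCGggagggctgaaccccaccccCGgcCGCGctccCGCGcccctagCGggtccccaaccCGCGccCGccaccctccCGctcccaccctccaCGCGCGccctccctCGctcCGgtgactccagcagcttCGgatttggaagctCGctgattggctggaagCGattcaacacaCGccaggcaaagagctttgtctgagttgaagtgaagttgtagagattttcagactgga
Pcdh19 (chrX:133688944-133689243, minus strand): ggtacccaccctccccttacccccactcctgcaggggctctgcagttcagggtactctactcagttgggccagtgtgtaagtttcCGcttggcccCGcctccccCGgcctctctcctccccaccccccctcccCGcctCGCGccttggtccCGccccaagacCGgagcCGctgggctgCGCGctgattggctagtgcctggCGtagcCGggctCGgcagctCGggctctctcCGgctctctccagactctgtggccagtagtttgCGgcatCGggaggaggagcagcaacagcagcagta
Pcdh17 (chr14:84443313-84443612, plus strand): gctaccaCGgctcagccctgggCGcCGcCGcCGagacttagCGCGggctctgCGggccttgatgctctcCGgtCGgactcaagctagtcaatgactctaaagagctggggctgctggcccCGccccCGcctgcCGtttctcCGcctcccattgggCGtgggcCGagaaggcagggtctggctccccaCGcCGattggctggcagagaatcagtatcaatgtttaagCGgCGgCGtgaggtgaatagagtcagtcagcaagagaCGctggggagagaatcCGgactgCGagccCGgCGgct
Pcdh15 (chr10:73821617-73821916, plus strand): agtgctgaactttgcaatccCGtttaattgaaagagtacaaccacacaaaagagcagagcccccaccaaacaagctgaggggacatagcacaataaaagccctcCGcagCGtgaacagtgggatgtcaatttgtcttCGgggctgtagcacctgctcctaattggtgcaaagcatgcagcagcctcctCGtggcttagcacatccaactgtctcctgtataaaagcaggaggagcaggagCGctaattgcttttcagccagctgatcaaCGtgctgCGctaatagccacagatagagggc
These windows hold 23, 18, 26 and 8 CG. Among all 32851 windows of the table, 21.5% held at least as many as Pcdh18, 29.7% as Pcdh19, 16.9% as Pcdh17 and 48.7% as Pcdh15, and the median was 7. A scarce and an abundant gene could thus both start in a CG-dense window. The Pcdh15 window lies inside the gene body that GENCODE M21 gives (chr10:73099342-74649737), and starts upstream of it were not analysed here.

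Pcdh19, a delta2 gene on the X chromosome whose human counterpart is mutated in an X-linked epilepsy, stood at 229, 213 and 119 CPM in WT and 195, 235 and 192 CPM in KO lines (log2 fold change 0.15, SE 0.25). WT line 78 was the lowest line. Pcdh18, a delta2 gene, stood at 137, 164 and 169 CPM against 170, 155 and 90.1 CPM (-0.18, SE 0.24), with KO line 72 lowest. Pcdh7, a delta1 gene, stood at 103, 84.3 and 110 CPM against 78.7, 111 and 124 CPM (0.08, SE 0.19). The genotypes overlapped in all 3 genes.

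Pcdh15, a part of the tip link that gates mechanotransduction in inner-ear hair cells, had 42, 66 and 30 counts in WT and 11, 4 and 2 counts in KO lines. In CPM these were 0.557, 0.820 and 0.303 against 0.124, 0.0592 and 0.0259. The groups did not overlap. Its log2 fold change was -2.95 (SE 0.65, edgeR adjusted p = 0.133), the largest of any member in size. It had an unadjusted p under 0.05 in all 13 settings that tested it, and KO stood at 0.0911 of WT within lane 6 and 0.195 within lane 7. The main filter kept Pcdh15 through its WT lines, where it was high, and a filter of a mean of at least 50 counts left it out.

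Pcdh17, a delta2 gene of presynaptic sites, had 44, 38 and 34 counts in WT and 18, 2 and 0 in KO lines. The 0 in KO line 72 allows a level of up to 0.0389 CPM, the value of 3 counts. This covers counting error only and is too low if counts come in pairs, as the even numbers above leave possible. KO line 33 held most of the KO counts. Pcdh17 too was kept by the main filter through its WT lines, where it was high. The log2 fold change was -2.51 (SE 1.03, edgeR adjusted p = 0.336), and it was -4.90 without KO line 33 and -1.92 without line 72.

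Pcdh11x, the X-linked delta1 gene, was lower in KO at a level with ample counts. It had 1148, 1173 and 2018 counts in WT and 465, 531 and 78 in KO lines, or 15.2, 14.6 and 20.4 CPM against 5.22, 7.86 and 1.01 CPM. The groups did not overlap, and KO line 72 was lowest. The log2 fold change was -1.83 (SE 0.66, edgeR adjusted p = 0.292), and -1.35 (SE 0.24, adjusted p = 0.0931) without line 72. WT line 78, the WT line with high Xist and little Y-linked RNA like the KO lines, had the highest level, and the KO mean was 23.03% of it. The corresponding values for Pcdh15 and Pcdh17 were 22.9% and 22.5%. These percentages rest on WT line 78 alone. The part of the Xist and Y-linked makeup of the lines in these values was not tested. Pcdh11x in KO was at 0.214 of WT within lane 6 and 0.385 within lane 7.

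In the 4 remaining non-clustered genes, named after their values were seen, KO lines parted from each other more than the genotypes did. Pcdh1, a delta1 gene of epithelia that lies on chromosome 18 beyond the gamma cluster (chr18:38185914-38212053), stood at 7.19, 6.41 and 7.15 CPM in WT and 20.2, 3.06 and 20.7 CPM in KO lines. KO lines 33 and 72 were above all WT lines and line 41 below them (log2 fold change 1.08, SE 0.64, edgeR adjusted p = 0.491). Without line 41 the change was 1.57 (SE 0.11, adjusted p = 0.0413). Pcdh10, a delta2 gene that binds the WAVE actin regulator through Nckap1, stood at 7.25, 9.45 and 3.62 CPM against 2.95, 2.06 and 13.1 CPM. Here KO line 72 was highest and the other KO lines were below all WT lines. Pcdh9 stood at 43.5, 49.2 and 42.8 CPM against 40.1, 53.9 and 22.6 CPM.

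Pcdh20, a divergent member, had 72, 300 and 364 counts in WT and 854, 12 and 24 in KO lines. A glial gene followed a like order of lines. Sox10, the neural crest and Schwann cell factor, had 12, 114 and 190 counts in WT and 670, 6 and 0 in KO lines. The 4 glial and Schwann markers reported here summed to 0.623, 1.95 and 2.95 CPM in WT and 8.79, 0.533 and 0.324 CPM in KO lines, and their part in the Pcdh20 values was not tested. For Pcdh20 the log2 fold change was 0.27 (SE 1.42, edgeR adjusted p = 0.947).

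**Figure D5:**
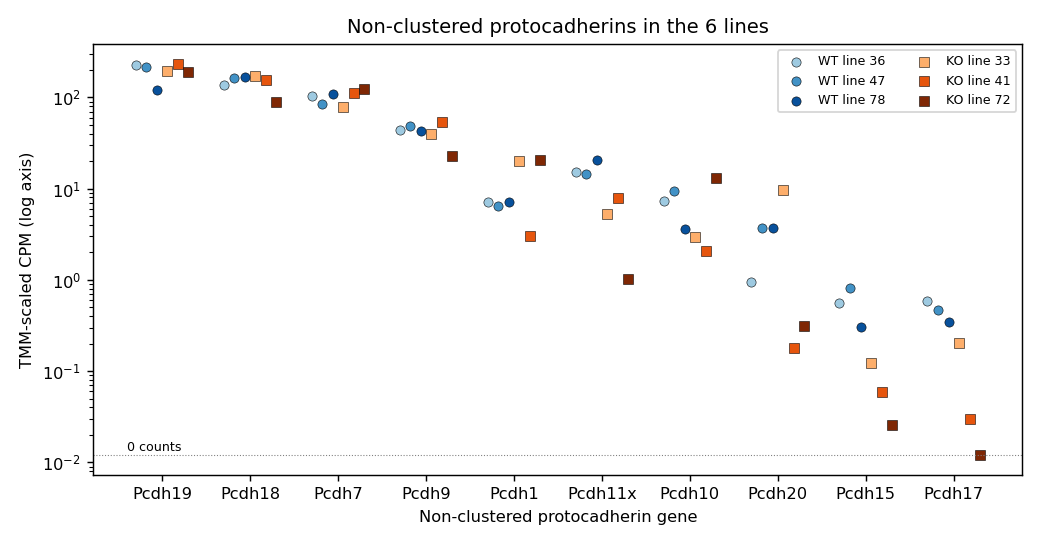
TMM-scaled CPM (log axis) of the 10 non-clustered genes in each of the 6 lines, ordered by mean level, with a dotted line for 0 counts. All KO lines lie below all WT lines for Pcdh11x, Pcdh15 and Pcdh17, and the KO lines run from 0.178 to 9.59 CPM for Pcdh20.

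Of 39 genes that act with the protocadherins, 2 had an unadjusted p under 0.05, beside 14.6% of all tested genes. Of 22 regulators of cluster chromatin (CTCF, cohesin and its loader, DNA methyltransferases, TET and SETDB1-type silencers), 7 were higher and 15 lower in KO. In this list the 1 gene with an unadjusted p under 0.05 was Tet2 (5-methylcytosine oxidation, log2 fold change -0.42, SE 0.14, edgeR adjusted p = 0.259). Ctcf itself was at -0.08 (SE 0.09). Of 17 cytoplasmic partners and cleaving enzymes, such as the kinases Ptk2 and Fyn, the WAVE complex and ADAM10, 4 were higher and 13 lower, with Abi1 of the WAVE complex at -0.17 (SE 0.07, adjusted p = 0.323). None of these 39 genes had an edgeR adjusted p under 0.05.

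Other cadherins differed in single genes. Of 18 tested classical cadherins and catenins, 12 were higher and 6 lower. Cdh2 (N-cadherin) was at 0.29 (SE 0.12, edgeR adjusted p = 0.332) and the endothelial Cdh5 at -0.85 (SE 0.28, adjusted p = 0.260). The low-abundance Cdh4 (R-cadherin) was at -3.13 (SE 1.24, adjusted p = 0.326), with 36, 112 and 12 counts in WT and 14, 4 and 0 in KO lines. KO and WT lines overlapped for Cdh2 and Cdh4 but not for Cdh5. Of 9 tested large atypical cadherins, 2 were higher and 7 lower. Fat3, which shapes retinal neurites, had 3384, 4057 and 3932 counts in WT and 1510, 2080 and 1428 in KO lines. The groups did not overlap, and its log2 fold change was -1.03 (SE 0.24, adjusted p = 0.153).

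Genes beside the clusters did not share a direction. Of 24 tested protein-coding genes within 500 kb of the clusters or between them, 14 were higher and 10 lower in KO. Arap3, a GTPase-activating protein 3' of the gamma cluster (chr18:37972628-37998969), fell by 0.66 on the log2 scale (SE 0.07, edgeR adjusted p = 0.0357), with 3466, 3768 and 4613 counts in WT and 2460, 2128 and 2245 in KO lines. It was the one gene of the list that passed. Hdac3, a histone deacetylase between the gamma cluster and Arap3, was at 0.22 (SE 0.06, adjusted p = 0.212), and Wdr55 at 0.35 (SE 0.11, adjusted p = 0.245).

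Markers of other lineages were scarce or uneven. The 7 listed endothelial markers summed to 12.9 to 14.3 CPM in WT and 9.93 to 15.2 CPM in KO lines. Of the 6 tested, 3 were higher and 3 lower in KO, with a median log2 fold change of -0.05. Pecam1 was lowest at -1.63 (SE 0.41, edgeR adjusted p = 0.175) and Erg highest at 0.68 (SE 1.01, adjusted p = 0.803). Epithelial markers summed to 1.76 to 2.49 against 1.09 to 2.07 CPM, and skeletal muscle markers to 3.44 to 26.9 against 3.94 to 25.4 CPM. All 6 proliferation genes were higher in KO (51.5% of all tested genes were), with a median log2 fold change of 0.73. Of these, 4 had an unadjusted p under 0.05 (background 5.88%) and none an adjusted p under 0.05 (edgeR). KO and WT lines overlapped in all of them but Top2a. Among the fibroblast markers only Thy1 had an unadjusted p under 0.05 (-0.31, SE 0.12, adjusted p = 0.305). Their part in the protocadherin values was not tested.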

How the data were processed

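RNA libraries were made from 200 ng of total RNA with the TruSeq RNA v2 kit. The authors deposited raw counts per gene for the 6 lines, and the submitters' processing notes name mm10 and edgeR. The aligner, counter, annotation and use of strand are not given in the sources used here. The deposited table also holds the authors' own log2 fold change, log2 CPM, F score, p-value and q-value for each gene, none of which was used. Groups were taken from the sample labels. Counts were filtered with filterByExpr, scaled by TMM and fitted with edgeR 4.0.16 (glmQLFit and glmQLFTest, two-sided, genotype alone, Benjamini-Hochberg over all 14773 tested of 17512 genes), called at an adjusted p under 0.05. CPM used library totals (67720628 to 98786746 counts) multiplied by TMM factors, and the 3 lines per genotype limit the precision. All 63 members matched GENCODE M21 (GRCm38), the source of positions and exon lengths. DESeq2 1.42.0 and limma 3.58.1 in R 4.3.3, other scalings, other filters, lane as a covariate and leaving out each line were alternatives. Values in every line are given for the 3 members of highest mean CPM in each class, members with an unadjusted p under 0.05 and X-linked members, and from other lists at most the 3 genes of smallest p under 0.05, with others named where so stated. Members, lists and tests were chosen with earlier results of these data known. Scripts were tested on simulated data. A glial marker of the lists is not reported here.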

Additional observations from a re-analysis of the deposited data

How the results depend on the processing

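The count of protocadherins at an adjusted p under 0.05 was 0 with edgeR under every scaling and filter run, 4 with the DESeq2 Wald test, and 0 to 1 when lines were left out (1, Pcdh1, without KO line 41). The count lower at an unadjusted p under 0.05 (6) ranged from 3 (without WT line 47) to 7. The count higher (4) was 1 with lane in the model and 2 to 9 when lines were left out (2 without WT line 36 or 47, 9 without KO line 41). The alpha median log2 fold change of 1.53 was 0.81 with voom and sample quality weights, and 0.59 (without KO line 72) to 1.83 when lines were left out. The log2 ratio of alpha sums ranged from 0.48 to 2.83. The log2 ratio of gamma A sums was 0.07, or 0.10 per kb. Over all exonic bases the median WT level was 0.00894 CPM per kb for alpha and 2.33 for gamma genes. Signs turned in genes with values near 0. Pcdhb19 was at -0.043 with lane and from -0.117 to 0.242 when lines were left out. Pcdhgc3 was at -0.0013 with library size alone, -0.024 with voom, and from -0.0309 to 0.0594 when lines were left out. Ranges when lines were left out were -0.0846 to 0.319 for Pcdh19, -0.356 to 0.0639 for Pcdh18 and -0.0482 to 0.250 for Pcdh7. The cause of these shifts was not tested. With lane in the edgeR model, Pcdh11x, Pcdh17, Pcdha12, Pcdhga5 and Pcdhga8 no longer had an unadjusted p under 0.05. Lane 8 held WT line 36 alone, so that line added nothing to the genotype estimate in this model. Whether lane itself or the fewer lines raised these p-values was not tested. Pcdh15, Pcdha10, Pcdhgb1 and Pcdhgb2 kept it in every setting that tested them. No paired analysis was possible because no source states which lines, if any, were littermates. Depth limits the low genes, and 3 counts were 0.0303 to 0.0444 CPM.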
